A study of Mus musculus with 16 samples.

Results

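The 3 genes that encode nuclear factor Y (NF-Y), Nfya, Nfyb and Nfyc, were followed in the R6/2 mouse brain by Iso-seq, which reads whole cDNA molecules on a PacBio instrument. They were taken by gene name from the isoform count tables and are 3 of the 23724 genes with at least 1 read, with 165 of the 815498 isoforms listed. They were chosen on their own gene reads and isoform shares over the region and genotype groups, so these values are given as a description and carry no test. R6/2 mice, B6CBA-Tg(HDexon1)62Gpb/3J, carry a transgene of human HTT exon 1 with an expanded CAG repeat under the human HTT promoter, a model of Huntington's disease that makes a fragment of the protein rather than the whole of it. Non-transgenic (NT) mice were the controls. All animals were male and 3 months old, and bulk cortex and striatum gave 4 groups, cortex NT, cortex R6/2, striatum NT and striatum R6/2, with 4 samples each and 16 in all. The human transgene is not part of the mouse annotation that was counted, so the genotype labels could not be checked on it.

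NF-Y is a heterotrimer that binds the CCAAT box, a short element found before the start of many genes. NF-YB and NF-YC pair through histone folds, and NF-YA joins the pair and reads the CCAAT bases. In promoters of cell cycle, sterol synthesis and endoplasmic reticulum (ER) stress genes, NF-Y acts beside other factors such as E2F, SREBP and ATF6.

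A read is a full-length cDNA assigned to 1 isoform. Known isoforms match the annotation, NIC isoforms join annotated splice sites in a combination that is not annotated, NNC isoforms use at least 1 unannotated site, and ISM (incomplete splice match) isoforms lack part of a known one. Gene reads are the sum of these 4 classes, and complete reads leave out ISM. Reads of all classes ran from 252885 to 808814 per cortical sample and from 317050 to 1496196 per striatal sample. Each level is in CPM, a depth-scaled count with TMM factors, and 1 read was worth between 0.811 and 5.09 CPM. Of the 8 striatal samples, 4 (NT 1, NT 2, R6/2 2 and R6/2 3) have 2 deposited count sets, which were summed. Their mean isoform length was 2141 to 2225 nt against 1618 to 1885 nt in the other 4, and their share of mitochondrial reads was 0.408 to 0.851% against 1.41 to 3.27%.

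Region labels held up on markers. The 10 markers of striatal projection neurons summed to between 10591 and 14465 CPM in NT striatum and between 392 and 493 CPM in NT cortex, and in R6/2 mice to between 1973 and 3423 CPM in the striatum and between 102 and 136 CPM in the cortex. The 10 markers of cortical excitatory neurons summed to between 1063 and 1985 CPM in NT cortex and between 343 and 644 CPM in NT striatum. Fewer cells of a type and less RNA per cell cannot be told apart in bulk tissue. The 7 choroid plexus markers reached 9607 CPM in striatum NT 3 against at most 335 CPM in the other striatal samples, and 976, 1253 and 1625 CPM in cortex NT 4, R6/2 2 and R6/2 3 against at most 45.1 CPM in the other cortical samples.

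The stretches below are shown because they hold the features the results refer to. The first is exon 3 of Nfya (chr17:48398982-48399068, minus strand, GENCODE M21, mm10), a coding exon of 87 nt that is present in ENSMUST00000046719, loses its first 3 nt in ENSMUST00000078800 (capitals), and is absent from ENSMUST00000162460, the transcript of the short form of NF-YA.
Nfya exon 3: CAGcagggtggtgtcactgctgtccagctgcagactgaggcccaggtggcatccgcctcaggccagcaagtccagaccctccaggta
The second is exon 5 of Nfyb (chr10:82752407-82752604, minus strand), the longest of its wholly coding exons with 198 nt, which codes for part of the histone fold.
Nfyb exon 5: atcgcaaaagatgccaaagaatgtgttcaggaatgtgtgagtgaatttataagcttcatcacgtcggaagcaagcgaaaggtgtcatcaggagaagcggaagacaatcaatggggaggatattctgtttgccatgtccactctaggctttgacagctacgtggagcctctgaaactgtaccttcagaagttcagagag
The others are promoter windows from RefSeq (GRCm38.p6), up to 250 bases before an annotated start, with CCAAT or its reverse complement ATTGG in capitals.
Nfyb promoter, chr10:82764142-82764391, minus strand: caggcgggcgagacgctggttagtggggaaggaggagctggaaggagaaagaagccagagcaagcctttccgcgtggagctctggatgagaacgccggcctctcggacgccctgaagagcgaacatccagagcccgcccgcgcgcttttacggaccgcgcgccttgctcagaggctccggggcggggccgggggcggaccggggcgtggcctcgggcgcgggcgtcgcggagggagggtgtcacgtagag
Nfyc promoter, outer start, chr4:120825742-120825991, minus strand: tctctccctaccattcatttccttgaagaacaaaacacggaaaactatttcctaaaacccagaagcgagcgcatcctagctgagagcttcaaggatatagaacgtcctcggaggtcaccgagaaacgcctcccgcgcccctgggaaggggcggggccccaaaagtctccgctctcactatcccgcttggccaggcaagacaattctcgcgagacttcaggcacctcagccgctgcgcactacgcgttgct
Nfyc promoter, inner start, chr4:120825210-120825459, minus strand: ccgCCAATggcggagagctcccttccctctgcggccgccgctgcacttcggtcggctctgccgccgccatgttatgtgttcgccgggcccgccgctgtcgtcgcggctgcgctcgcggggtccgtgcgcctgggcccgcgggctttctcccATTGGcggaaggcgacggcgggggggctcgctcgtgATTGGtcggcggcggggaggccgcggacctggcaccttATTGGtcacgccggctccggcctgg
Nfya promoter, chr17:48409907-48410070, minus strand: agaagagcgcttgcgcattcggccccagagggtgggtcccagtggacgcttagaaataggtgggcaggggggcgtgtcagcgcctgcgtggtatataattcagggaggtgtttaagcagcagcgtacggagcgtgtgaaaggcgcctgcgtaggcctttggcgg

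CCAAT was searched on both strands, and a CCAAT and an ATTGG that overlap were counted separately. RefSeq gives 1 window for Nfyb and 3 each for Nfyc and Nfya. The Nfyb window holds neither. For Nfyc, the window of the outer start, which lies just before exon 1 of the main annotated isoform, holds neither, that of the inner start, inside the first intron of that isoform, holds 1 CCAAT and 3 ATTGG, and the last (chr4:120815714-120815963, not shown) holds 2 CCAAT. For Nfya, the windows of the outer starts hold neither and the last (chr17:48400581-48400830, not shown) holds 1 CCAAT. Of all 32851 windows of 250 bases, 33.8% hold at least 1 and 10.1% hold at least 2. The count tables give no read start, so which Nfyc start the reads came from was not measured.

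Nfyb (ENSMUSG00000020248, chr10:82748701-82764144, minus strand), the histone-fold partner of Nfyc, had the larger difference between genotypes in both regions. In the cortex, Nfyb stood at 25.4, 56.5, 50.9 and 44.4 CPM in NT mice 1 to 4, from 9, 25, 10 and 22 reads. In R6/2 mice 1 to 4, it stood at 111, 104, 111 and 151 CPM, from 58, 49, 77 and 63 reads. All R6/2 cortices lay above all NT cortices, and the lowest R6/2 value was well clear of the highest NT value. The means were 119 ± 21.6 CPM in R6/2 and 44.3 ± 13.5 CPM in NT cortex (SD, n = 4), a ratio of 2.70. The fitted log2 fold change was 1.43 with an SE of 0.24, and 3 of the 6128 genes tested in the cortex had a higher one.

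The striatum gave the same picture for Nfyb. The NT samples 1 to 4 held 36.8, 41.4, 46.0 and 55.8 CPM, from 28, 51, 28 and 11 reads. The R6/2 samples 1 to 4 held 81.8, 106, 126 and 101 CPM, from 54, 98, 119 and 41 reads. The groups did not overlap here either. The means were 104 ± 18.3 and 45.0 ± 8.09 CPM (SD, n = 4), a ratio of 2.31, and the log2 fold change with a term for the number of count sets was 1.27 with an SE of 0.20. A higher fold change was seen in 18 of the 7694 genes tested. Across all genes tested, every R6/2 sample lay above every NT sample in 3.56% of genes in the cortex, 1.79% in the striatum and 0.42% (25 of 5947 genes tested in both) in both regions. Nfyb was chosen on these values, so its place among them is a description.

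**Figure D1:**
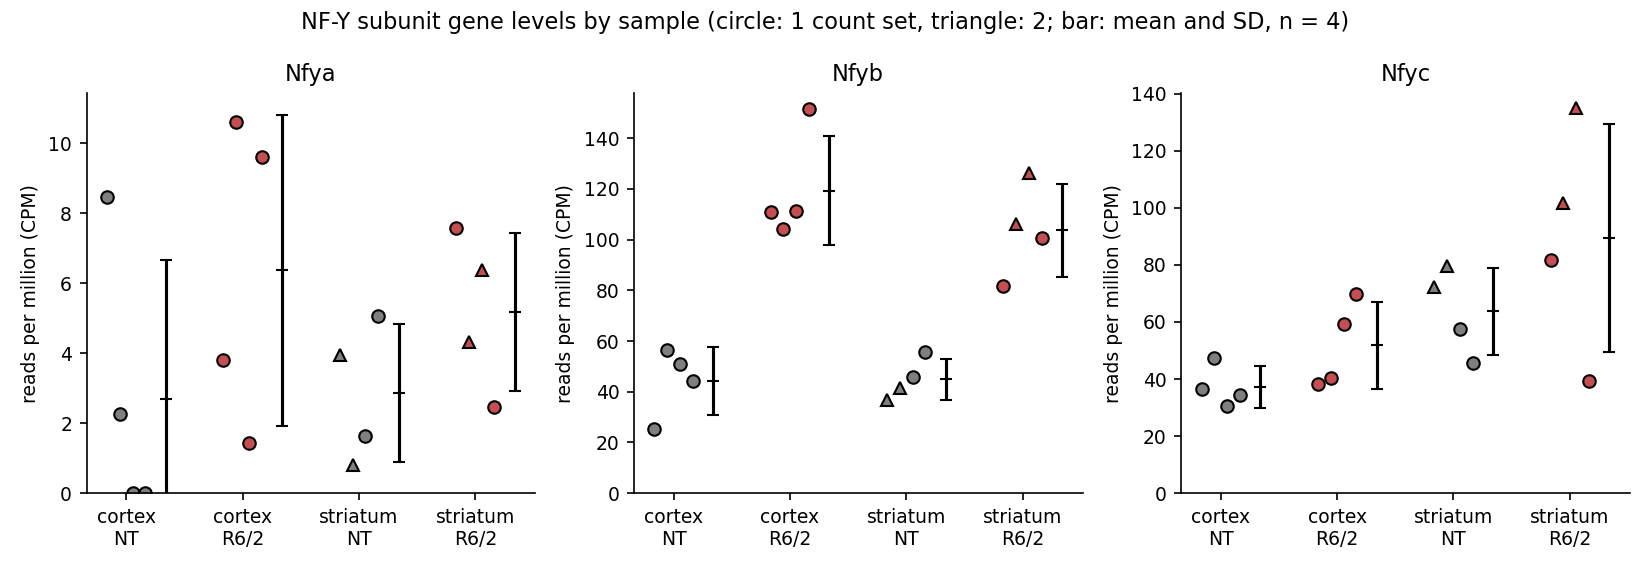
Levels of Nfya, Nfyb and Nfyc in CPM for each of the 16 samples, with circles for samples of 1 count set, triangles for samples of 2, and bars for the mean and SD of 4 samples (bars that would pass below 0 are cut at the axis). For Nfyb the R6/2 samples, at 81.8 to 151 CPM, lie above all NT samples, at 25.4 to 56.5 CPM, in both regions, while the genotypes overlap for Nfya and Nfyc.

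The Nfyb difference was present in striatal samples of either number of count sets. Among samples with 1 count set, NT striata held 46.0 and 55.8 CPM and R6/2 striata 81.8 and 101 CPM. Among samples with 2 count sets, NT striata held 36.8 and 41.4 CPM and R6/2 striata 106 and 126 CPM. The log2 fold change was 0.87 (SE 0.33) in the first and 1.53 (SE 0.22) in the second. The striatal value without NT 3, the sample rich in choroid plexus markers, was 1.35 (SE 0.23). The striatal projection neuron markers were lower in R6/2 mice in the same samples in which Nfyb was higher, and their part in the Nfyb level was not tested.

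Most Nfyb reads came from 1 annotated isoform. ENSMUST00000130911, with 8 exons and 2554 nt, the last exon of which holds 1747 nt and little coding sequence, gave 455 of the 568 complete Nfyb reads (80.1%). It stood at 16.1 to 20.4 CPM in NT cortex and 59.2 to 91.3 CPM in R6/2 cortex, and at 19.7 to 35.5 CPM in NT striatum and 40.9 to 97.7 CPM in R6/2 striatum. The genotypes did not overlap for this isoform in either region, and no share over all isoforms stands beside this. In the striatum the margin was narrow, since the highest NT value rests on 7 reads of NT 4, each worth 5.07 CPM. The isoform gave 61.2% of Nfyb gene reads, so its values are a large part of the gene values described above. Its share of complete reads was 72.8 ± 13.3% in NT and 81.3 ± 6.53% in R6/2 cortex, and 78.0 ± 7.10% in NT and 79.5 ± 6.43% in R6/2 striatum (SD, n = 4), so the genotype means differed by less than the larger SD in each region. The NT shares rest on 7 to 12 complete reads per cortical sample. In cortex NT 3, for example, 4 of 7 reads gave 57.1% with a 95% Wilson interval from 25.05 to 84.18%, which covers counting error only.

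The second complete Nfyb isoform is a NIC isoform of 7 exons and 2380 nt, TALONT000599849, with 67 reads (11.8% of complete reads). It is 174 nt shorter than the annotated isoform, and no single exon of that isoform has this length. The count tables do not give its exons. Its reads were 0, 0, 1 and 2 in NT and 2, 2, 8 and 9 in R6/2 cortex, and 2, 6, 0 and 1 in NT and 7, 10, 15 and 2 in R6/2 striatum. As a share of complete reads it stood at 8.11% in NT and 11.5% in R6/2 cortex, over the reads of each group together (95% Wilson intervals 2.80 to 21.3% and 7.63 to 16.9%). In the striatum the shares were 9.68% in NT (5.18 to 17.4%) and 13.3% in R6/2 (9.70 to 18.1%). These intervals cover counting error only, treat the reads of 4 samples as 1 pool, and are no test of a difference.

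ISM reads made up 23.6% of Nfyb gene reads against 4.89% for Nfyc. The most frequent, TALONT000599869, has 1 exon of 1747 nt, the length of the annotated last exon, and held 111 reads. Its share of gene reads was 1.96 to 14.3% in the striatal samples with 2 count sets and 18.5 to 28.6% in those with 1. Sample types that differ in mean isoform length thus differ in this share as well. The share was 25.01 ± 11.55% in NT and 18.9 ± 4.12% in R6/2 cortex (SD, n = 4). With ISM reads left out, the Nfyb log2 fold change was 1.81 (SE 0.27) in the cortex and 1.27 (SE 0.23) in the striatum. The complete reads alone stood at 19.7 to 35.6 CPM in NT and 72.2 to 115 CPM in R6/2 cortex.

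**Figure D2:**
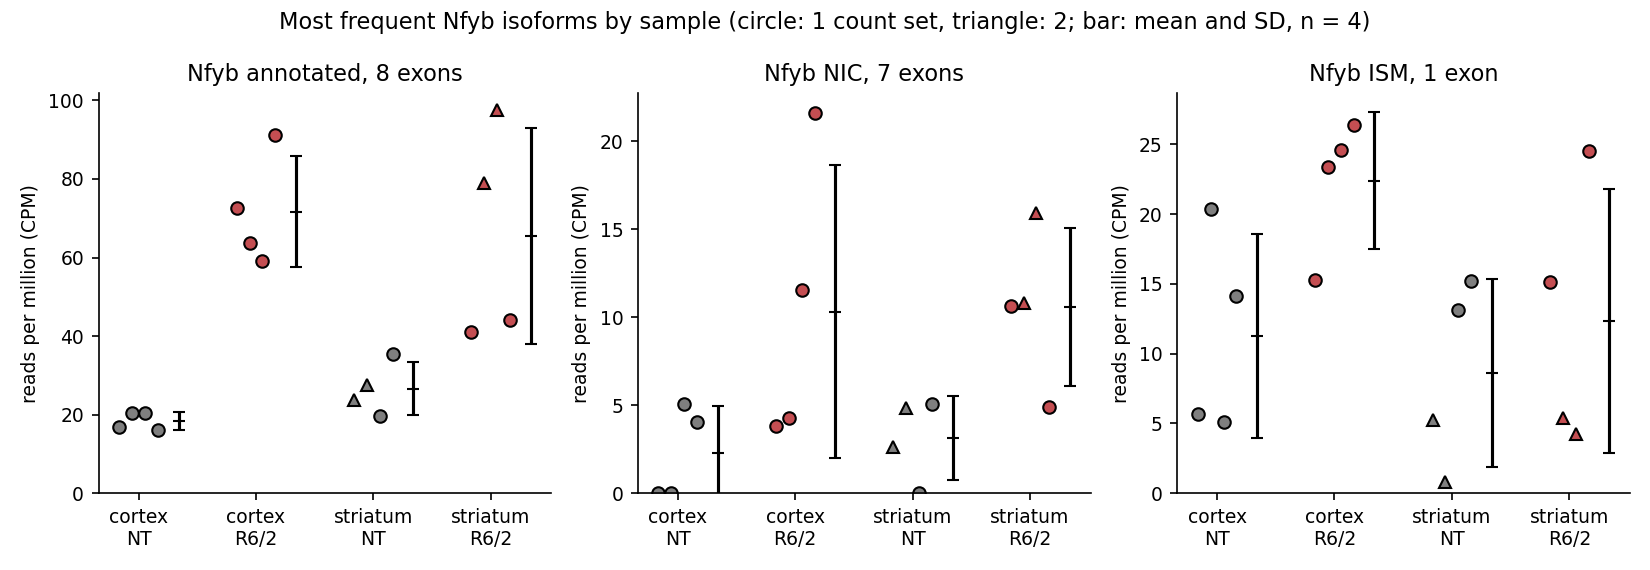
The most frequent Nfyb isoforms in CPM by sample, with circles for samples of 1 count set, triangles for samples of 2, and bars for the mean and SD of 4 samples (cut at 0). The annotated isoform separates the genotypes widely in the cortex, at 16.1 to 20.4 CPM in NT against 59.2 to 91.3 CPM in R6/2. In the striatum it does so narrowly, at 19.7 to 35.5 against 40.9 to 97.7 CPM. Within the striatum, the 1-exon ISM isoform is lower in the 4 samples with 2 count sets than in those with 1.

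Nfyc (ENSMUSG00000032897, chr4:120757438-120831572, minus strand), the other histone-fold subunit, differed less between genotypes. The cortical NT samples 1 to 4 held 36.7, 47.4, 30.5 and 34.3 CPM from 13, 21, 6 and 17 reads. The cortical R6/2 samples held 38.2, 40.3, 59.2 and 69.7 CPM from 20, 19, 41 and 29 reads. R6/2 samples 1 and 2 lay within the NT range and samples 3 and 4 above it. The log2 fold change was 0.45 with an SE of 0.27, between means of 51.9 ± 15.2 and 37.2 ± 7.26 CPM (SD, n = 4).

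In the striatum, Nfyc stood at 72.4, 79.5, 57.5 and 45.6 CPM in NT samples 1 to 4 and at 81.8, 102, 135 and 39.3 CPM in R6/2 samples 1 to 4. The groups overlapped, because R6/2 sample 4 had the lowest striatal value of all. The means were 89.4 ± 40.0 and 63.7 ± 15.2 CPM (SD, n = 4), with a log2 fold change of 0.47 and an SE of 0.22. The Nfyc level also followed the count sets. Samples with 2 count sets held 1.47 times the level of those with 1 in NT and 1.95 times in R6/2 striatum. For Nfyb these ratios were 0.769 and 1.27.

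The main Nfyc isoform, ENSMUST00000043429 with 10 exons and 1932 nt, gave 470 of 622 complete reads (75.6%). No other isoform reached 5%. Its share was 66.1 ± 23.2% in NT and 76.6 ± 12.1% in R6/2 cortex, and 67.03 ± 11.96% in NT and 77.1 ± 4.30% in R6/2 striatum (SD, n = 4). These means differed by less than the larger SD in each region. The remaining reads were spread thinly, since the 133 NIC and NNC reads of Nfyc fell on 56 isoforms, 36 of them with 1 read, while the 99 such reads of Nfyb fell on 16 isoforms. The largest of the unannotated Nfyc isoforms held 17 reads.

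**Figure D3:**
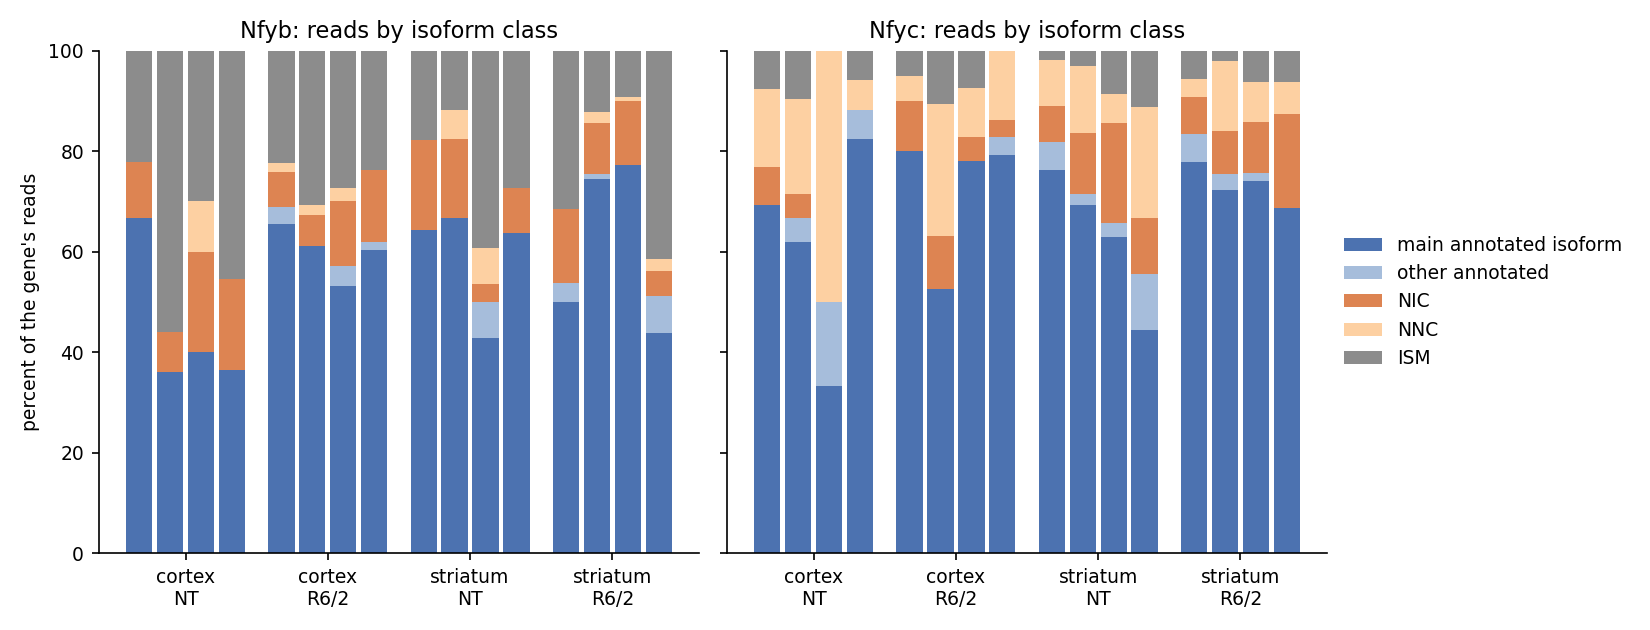
Share of the gene reads of Nfyb and Nfyc by isoform class, in percent, with 1 bar per sample and the 4 samples of each group side by side in the order of their numbers. The main annotated isoform is the largest class of complete reads for both genes, and ISM reads take 23.6% of Nfyb but 4.89% of Nfyc reads over all samples.

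Nfya (ENSMUSG00000023994, chr17:48386885-48409906, minus strand), the subunit that contacts DNA, was barely sampled. It had 38 gene reads in all 16 samples, did not pass the filter on low counts, and has no fold change in the main fits. With no filter, its log2 fold change was 1.10 (SE 0.84) in the cortex and 1.23 (SE 0.71) in the striatum. The reads were 3, 1, 0 and 0 in NT and 2, 5, 1 and 4 in R6/2 cortex, and 3, 1, 1 and 1 in NT and 5, 4, 6 and 1 in R6/2 striatum. The genotypes overlapped in both regions. The group sums were 4 and 12 reads in the cortex and 6 and 16 reads in the striatum, for NT and R6/2 respectively. Of the 24 complete reads, 9 came from ENSMUST00000046719 and 3 from ENSMUST00000078800, both with exon 3, and 3 came from ENSMUST00000162460, without it. Another 2 came from the annotated retained-intron transcript ENSMUST00000161686, 3 from the NIC isoform TALONT000544289 and 2 from the NIC isoform TALONT000544301. The 3 reads of the short form fell in cortex R6/2 4, striatum NT 2 and striatum NT 4, and 24 complete reads cannot rank the groups. Another 14 Nfya reads were of the genomic class, which matches no splice pattern and was left out of gene reads.

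The order of the group means is given for Nfyb and Nfyc, since the Nfya reads were too few to rank the groups. For Nfyb, cortex R6/2 (119 CPM) came first, then striatum R6/2 (104 CPM), striatum NT (45.0 CPM) and cortex NT (44.3 CPM). The R6/2 regions overlapped, the NT regions overlapped, and the striatal genotypes between them did not. The NT regions were close, with a log2 difference of striatum against cortex in NT mice of -0.10 (SE 0.29). For Nfyc the order was striatum R6/2 (89.4 CPM), striatum NT (63.7 CPM), cortex R6/2 (51.9 CPM) and cortex NT (37.2 CPM), and each neighbor in it overlapped the next. The log2 difference of striatum against cortex in NT mice was 0.35 (SE 0.31) for Nfyc, and 0.80 without a term for count sets. With the term, the regional differences set the cortex against the striatum at 1 count set, since every cortical sample has 1. The difference between the regional genotype effects was -0.14 (SE 0.32) for Nfyb and 0.04 (SE 0.37) for Nfyc on the log2 scale.

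Per Nfyc read, the cortical NT samples held 0.692 to 1.67 Nfyb reads and the cortical R6/2 samples 1.88 to 2.90. In the striatum the ratio was 0.509 to 1.22 in NT and 0.937 to 2.56 in R6/2. The genotypes overlapped in the striatal ratio and not in the cortical one. The cortical margin was narrow, since the highest NT ratio, in NT 3, rests on 10 Nfyb and 6 Nfyc reads. No share over other pairs of genes stands beside this. Across the 16 samples, log2 levels of Nfyb and Nfyc had a Pearson correlation of 0.34, a description over samples that share regions, genotypes and count sets.

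The genes whose levels ran most like a member's over the 16 samples were sought among 4337 genes with at least 5 reads in every sample. For Nfyb these were Tmx3, a thioredoxin-related ER membrane protein (r = 0.85), Vbp1, a prefoldin subunit (r = 0.83), and Rnpep, an aminopeptidase (r = 0.82). Tmx3 stood at 54.0 ± 25.2 CPM in NT and 84.7 ± 9.69 CPM in R6/2 cortex, and at 40.1 ± 8.59 and 79.0 ± 16.8 CPM in the striatum (SD, n = 4). For Nfyc they were Golga7 (r = 0.91), Mfn2, the mitochondrial fusion protein mitofusin 2 (r = 0.90), and Actr1a, a dynactin subunit (r = 0.89). Actr1a, like Nfyc, varied widely within the striatum, between 86.2 and 303 CPM in NT and between 128 and 453 CPM in R6/2 samples. For Nfya they were Sharpin (r = 0.82), Sec31a (r = 0.70) and Trip4 (r = 0.69), which rest on 0 to 6 Nfya reads per sample.

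Lists of genes drawn up around NF-Y and the CCAAT box were then compared between genotypes. They hold 117 genes. The partner list holds factors that act with NF-Y or share its histone-fold or co-activator machinery. The others are heat shock chaperones, ER stress element genes, sterol synthesis genes, and cell cycle genes with CCAAT promoters. In the cortex, 0 of the 66 genes tested passed edgeR's quasi-likelihood test at a Benjamini-Hochberg adjusted p of 0.05, 13 had an unadjusted p under 0.05, and DESeq2 called 1, Insig1. Over all genes tested in the cortex, 0.457% were called higher and 2.77% lower in R6/2 mice. In the striatum, 0 of 76 rose and 2 fell (2.63%), against 0.494% called higher and 3.82% called lower over all genes. The share of list genes called lower was thus near that of all genes.

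Both striatal calls were enzymes of sterol synthesis. Fdft1, squalene synthase, held 141, 175, 117 and 91.2 CPM in NT and 59.1, 82.3, 82.8 and 51.5 CPM in R6/2 striatum. The groups did not overlap, and Fdft1 fell by 0.96 on the log2 scale (SE 0.16, adjusted p = 0.0047 by edgeR's quasi-likelihood test). Msmo1, a methylsterol monooxygenase, held 178, 188, 187 and 142 CPM in NT and 77.3, 108, 121 and 81.0 CPM in R6/2 striatum, and fell by 0.87 (SE 0.16, adjusted p = 0.0078, same test). Neither was called with the count set term left out or within samples of 1 or of 2 count sets.

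The sterol synthesis list leaned to lower values in R6/2 mice in both regions. Its median log2 fold change was -0.40 over 18 genes in the cortex, 2 of them positive, and -0.35 over 19 genes in the striatum, 4 of them positive, against medians of 0.02 and 0.00 over all genes tested. The lowest adjusted p in the cortex was that of Insig1, the ER anchor of the SREBP escort (log2 fold change -1.04, SE 0.30, adjusted p = 0.058 by edgeR). Oligodendrocyte and astrocyte markers ran lower on the median in the same samples. Microglial markers did not, with medians of 0.07 in the cortex and 0.01 in the striatum. Oligodendrocyte markers had a median of -0.48 in the cortex, where 1 of 8 was called lower. In the striatum it was -0.38, with 3 of 8 called lower and 2 positive. Astrocyte markers had medians of -0.65 and -0.35, with 1 of 7 called lower in each region and 1 positive in the striatum. The oligodendrocyte markers summed to 4111 to 8099 CPM in NT and 3881 to 6158 CPM in R6/2 cortex, and to 14125 to 33081 and 13870 to 20869 CPM in the striatum. The astrocyte markers summed to 2391 to 3698 CPM in NT and 1395 to 1857 CPM in R6/2 cortex, and to 2007 to 3988 and 1337 to 1908 CPM in the striatum. Their part in the sterol gene levels was not tested.

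The medians of the other lists lay closer to 0 than those of the sterol list, and none of their genes was called by edgeR. The 20 ER stress element genes had a median of 0.15 over 17 genes tested in the cortex and 0.13 over 19 in the striatum, with 12 positive in each. Hspa5, the ER chaperone BiP, had the lowest adjusted p among them in the striatum (log2 fold change 0.60, SE 0.18, adjusted p = 0.091 by edgeR), and DESeq2 called it. The heat shock chaperones had medians of 0.13 over 15 genes and 0.05 over 16, with 11 and 13 positive. The partner list had medians of 0.12 over 13 genes and 0.29 over 19, with 9 and 15 positive. Of the 24 cell cycle genes, 3 had enough reads to be tested in each region.

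**Figure D4:**
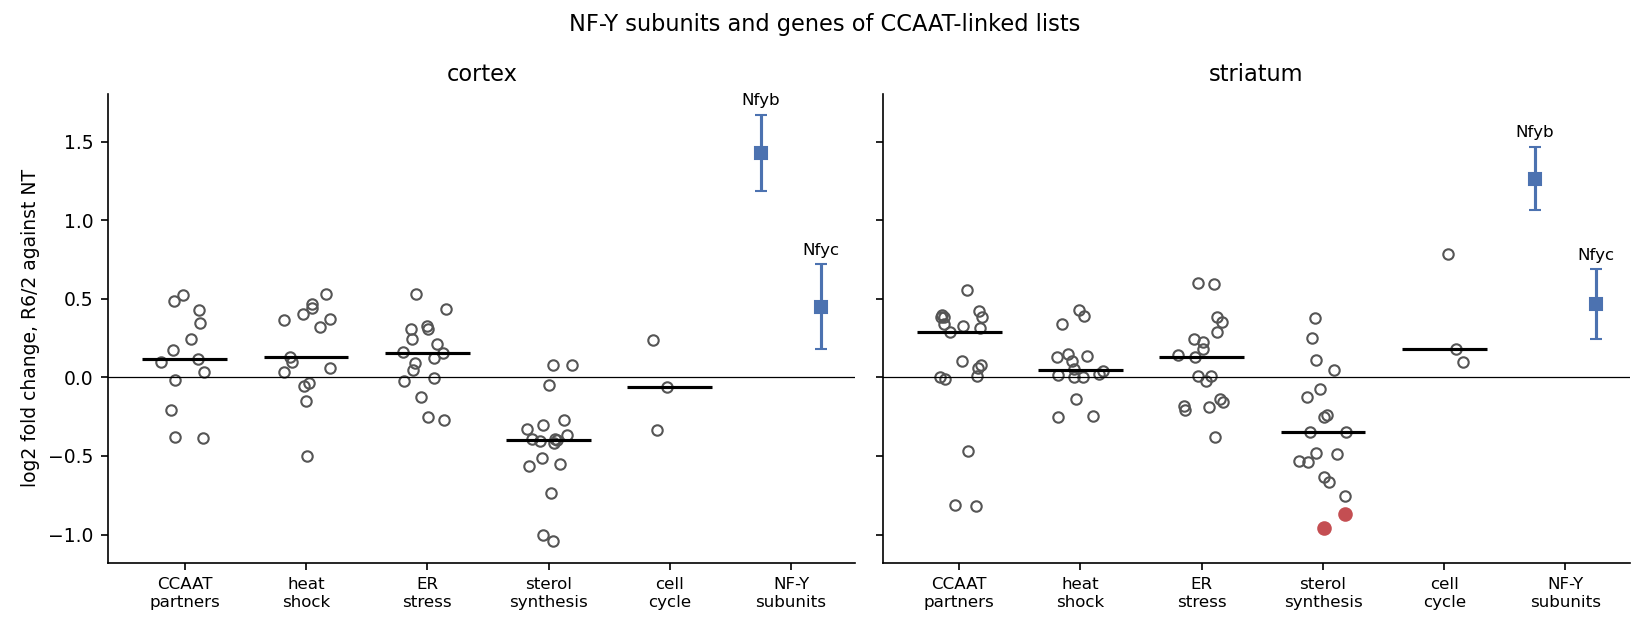
Log2 fold change of R6/2 against NT for the genes tested of each list (open circles, red where the adjusted p was under 0.05, black line for the list median) and for Nfyb and Nfyc (squares with SE). Nfyb, at 1.43 in the cortex and 1.27 in the striatum, lies above every list gene, and the sterol synthesis list has medians of -0.40 and -0.35.

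The cell cycle list was drawn up from genes with CCAAT boxes. The ER stress element list was drawn up from ER chaperones and ER stress response genes, several of them known for the element. The matches of both thus describe the lists and show nothing further. At least 1 CCAAT or ATTGG in 250 bases was found in all 17 ER stress element genes with a RefSeq window and in 16 of 20 cell cycle genes, where 37.5% of all 27025 genes with a window held one. The full ER stress element, CCAAT followed after 9 bases by CCACG on either strand, was found in 8 of the 17 and in 0.13% of all genes. For the other lists fewer than 80% of the genes had a window, so their shares are given without a comparison. At least 1 was found in 10 of 23 genes of the partner list (43.5%) and 7 of 15 heat shock chaperones (46.7%). For the sterol synthesis genes it was 14 of 15 (93.3%).

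Between regions, more list genes were called, as were more of all genes. In NT mice, 6 of 75 genes tested were higher in the striatum (8%) and 17 lower (22.7%), against 15.8% and 17.8% of all 7360 genes, and no test set the list against the rest. By the paper's account of the sampling the regions share mice, but the fit took their samples as independent. Cryab, a small heat shock protein, held 196, 153, 278 and 375 CPM in NT striatum 1 to 4 and 84.7 to 161 CPM in NT cortex. It was higher in the striatum, with means of 251 ± 97.7 CPM against 120 ± 32.4 CPM in the cortex (SD, n = 4). The fitted log2 difference was 1.39 (SE 0.21, adjusted p = 2.5e-05 by edgeR). All cortical samples have 1 count set. Fits with the count set term thus set the cortex against the striatum at 1 count set, not against its mean. Hspe1, the mitochondrial co-chaperonin, held 96.1, 91.7, 250 and 471 CPM in NT striatum 1 to 4 and 91.6 to 138 CPM in NT cortex. The striata with 2 count sets thus lay within the cortical range and those with 1 above it, and the fit with a term for count sets gave a log2 difference of 1.45 (SE 0.23, adjusted p = 4.8e-05, edgeR). Lower in the striatum were the chaperone Hspa4l, with a log2 difference of -1.21 (SE 0.23), the ER chaperones Dnajb11 (-0.99, SE 0.21) and Pdia6 (-0.85, SE 0.18), and Herpud1 of ER-associated degradation (-0.83, SE 0.23). Also lower were cyclin D1, Ccnd1 (-1.71, SE 0.45), and the sterol enzyme Hsd17b7 (-1.57, SE 0.43). The adjusted p of these genes by edgeR ran from 2.5e-05 to 0.0074. Without the count set term, Hspe1 (0.92, SE 0.45, adjusted p = 0.18 by edgeR), Dnajb11 (adjusted p = 0.064), Pdia6 (0.14) and Herpud1 (0.13) were not called. Hspa4l was not called with ISM isoforms left out (-0.48, SE 0.53, adjusted p = 0.53), nor Herpud1 without cortex NT 1 (adjusted p = 0.079) or with no filter on low counts (0.060). Without the count set term, 10 genes were called in place of 23, without striatum NT 3 also 10, and without cortex NT 4, 12. For the difference between the regional genotype effects, 0 of 75 list genes were called by edgeR or DESeq2, 3 had an unadjusted p under 0.05, and 0.0408% of all genes tested were called by edgeR.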

How the data were processed

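RNA of cortex and striatum was made into full-length cDNA by the authors and sequenced on a PacBio Sequel II. They made consensus reads, kept full-length reads with poly(A), aligned them to mm10 with minimap2 (2.17-r941 in the submitters' processing notes), and assigned them to isoforms with TALON. The values deposited are raw counts of reads per isoform, in 20 tables. Where a sample had 2 tables, they were summed here. Unequal read length and depth limit which isoforms could be seen.

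Here, gene counts were summed over known, ISM, NIC and NNC isoforms, which left out genomic, antisense and intergenic reads. They were fitted with edgeR 4.0.16 in R 4.3.3 (TMM, filterByExpr, glmQLFit and glmQLFTest, Benjamini-Hochberg adjustment over all genes tested). Cortex was fitted on its 8 samples, and striatum on its 8 with the number of count sets as a term. The regional and interaction contrasts were fitted on all 16 with the same term, which only striatal samples inform. DESeq2 1.42.0 was an alternative. The p-values measure the spread between the samples of a group. The fits were tested on simulated data that held no count set effect, so that check says nothing of the count set term. SE is the fold change divided by the root of the F statistic. CPM used the reads of genes that passed the filter, and log2 CPM for correlations a prior count of 2. Positions were taken here from GENCODE M21 and promoters from RefSeq.

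The 3 members, the gene lists and the tests were chosen with earlier results of these data known. Named were isoforms with at least 5% of a gene's complete reads, the called list genes (at most 8 per test), and the 3 genes most correlated with each member. Insig1 and Hspa5 in the report, and an isoform in the closing section, were named after their values were seen. The alternatives tried were other normalizations, filters, read classes, single count sets, left-out samples and a replicate block.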

Additional observations from a re-analysis of the deposited data

Results flagged for a closer look

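In 84 groups of 4 samples, 4 had a sample that stood apart from the others by Dixon's criterion, where chance gives about 1 in 20. Nfyb in cortex R6/2 4 was at 151 CPM, against 104 to 111 CPM in the other 3 R6/2 cortices. The log2 fold change without that sample was 1.31. NIC and NNC isoforms took 41.2% of the complete Nfyc reads in cortex R6/2 2, against 15.8 to 17.2% in the others, on 17 complete reads. Among the list genes named, Pdia6 stood at 267 CPM in 1 R6/2 cortex against 243 to 244 CPM in the others, and Herpud1 at 131 CPM in 1 NT cortex against 194 to 198 CPM.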

How the results depend on the processing

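The Nfyb log2 fold change between genotypes was positive under all alternatives. It moved by more than 1 SD of the samples to 1.81 in the cortex with ISM isoforms left out, and in the striatum to 0.87 within samples of 1 count set and 1.53 within samples of 2. The Nfyb interaction was -0.53 with ISM isoforms left out, and the regional Nfyc difference was 0.80 with no term for count sets. The difference in share of the main Nfyb isoform in the cortex was -3.60 percentage points among known isoforms only, against 8.43 among complete reads. In NT cortex all known Nfyb reads, 6, 9, 4 and 8, were of this isoform, so its known-only share could not be higher in R6/2. The cause of the other shifts was not tested. Leaving out 1 sample gave Nfyb values of 1.24 to 1.60 in the cortex and 1.15 to 1.37 in the striatum, and Nfyc values of 0.31 to 0.60 and 0.33 to 0.61.

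Of the list genes, the cortex gave 1 call, Insig1, with DESeq2, with no filter on low counts, with all 16 samples in 1 fit and with the genomic class added, and 0 to 6 with 1 sample left out. The 6 came without NT 1 and the adjusted p of Insig1 was then 0.0021. The striatum gave 0 with no count set term and 0 within samples of 1 or of 2 count sets, where fewer samples were tested, and 2 to 4 with 1 sample left out (4 without NT 4, with Insig1 and Hmgcs1 added). The regional test gave 10 calls with no count set term, 14 with ISM isoforms left out and 10 to 25 with 1 sample left out. With the replicate number as a replicate block, the counts were 0, 2, 19 and 0 for cortex, striatum, region and interaction. Over all genes the count of calls was 198 in the cortex and 95 with ISM isoforms left out. In the striatum it was 332, against 39 with no count set term, 182 with the block, 183 on the first count set alone, 53 and 34 within samples of 1 and of 2 count sets, and 637 with no filter. For the regional difference it was 2470, against 1103 with no count set term, and for the interaction 3, against 1 to 9 over the alternatives. Same-numbered NT and R6/2 samples are different animals, and the labels do not say whether same-numbered cortex and striatum came from 1 animal. The paper dissected both regions from 1 hemisphere and drew the long-read samples from most of its males, so the regions share mice. Which samples share a mouse is not given, and the main regional and interaction fits took all 16 samples as independent. The correlation of deviations from the group means between cortex and striatum ran from -0.25 to 0.31 over the 4 NT pairs and from -0.034 to 0.54 over the 4 R6/2 pairs, and after removal of the count set effect from -0.15 to 0.15 and from 0.023 to 0.43, so not every pair passed 0.1 and the numbers were not taken as pairs.

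Depth limits the rare forms: 1 read was worth up to 5.09 CPM, so Nfya and minor isoforms could not be compared.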

Other observations

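A NIC isoform of Nfyb with 8 exons and 2601 nt, TALONT000599861, held 9 reads, all in NT mice. They came from 6 of the 8 NT samples, with 0, 2, 1 and 1 reads in the cortex and 3, 1, 1 and 0 in the striatum, and made up 6.92% of the 130 complete Nfyb reads of these mice. The 8 R6/2 samples gave 0 of 438 complete reads. This allows a share of up to 0.685% (3 reads of 438) by counting error alone, with the reads of 8 samples taken as 1 pool. The NT share carries no such limit here, and no share of isoforms seen in only 1 genotype stands beside it. The isoform was singled out after its values were seen, and no test was made.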
